A study of Rattus norvegicus with 4 samples.

Results

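The let-7 family was followed across 4 arrays of serum exosome RNA from male rats. Its members are the 8 miRNAs, of 719 rat miRNAs on the array, whose array name is a let-7 guide strand (let-7a-5p, let-7b-5p, let-7c-5p, let-7d-5p, let-7e-5p, let-7f-5p and let-7i-5p) or the let-7d passenger strand (let-7d-3p). They were chosen by name, with earlier results of these data known. let-7 miRNAs are short RNAs that bind partly complementary sites in messenger RNAs through their seed, bases 2 to 8, and lower the output of those messengers. They accumulate as cells differentiate, repress growth genes such as those of the Ras, Myc and Hmga2 proteins, and are held down in immature cells by the RNA-binding protein Lin28. They are abundant in most adult tissues, liver and blood cells included, and low levels are common in tumours.

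Exosomes are small vesicles that cells release into blood. Their RNA was isolated by means of a commercial kit, labelled with Cy3 and hybridised in 1 colour to Agilent miRNA arrays. The groups were naive (no injection, day 0), light hepatocellular carcinoma (HCC) at day 35, moderate HCC at day 49 and severe HCC at day 49. The strain is spelled baffolo in the design text. The labels' protocol has a HCC cell line injected into the rats, which it does not name, whereas the design text has HCC exosomes injected as 1 dose. According to the design text each time point was repeated in 4 independent experiments on other rats. A single array stood for each group here, and whether it holds pooled RNA is not given in the sources used here. There is therefore no spread between replicates and no p-value, and every difference is one between 2 arrays. A value after ± is the standard error among the repeated spots of that array, so it covers spot noise only. Disease and day change together against naive, so the effects of each cannot be told apart.

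The mature sequences are shown first because the guide strands differ by so few bases. Binding of 1 member to the probe of another was not tested, since the probe sequences were not used here. The sequences come from RefSeq (GRCr8 table), where 8 of 8 members were matched by name, and run 5′ to 3′ with the seed in capitals.
rno-let-7a-5p: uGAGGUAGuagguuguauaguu
rno-let-7b-5p: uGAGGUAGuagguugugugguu
rno-let-7c-5p: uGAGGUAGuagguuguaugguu
rno-let-7d-5p: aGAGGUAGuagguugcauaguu
rno-let-7e-5p: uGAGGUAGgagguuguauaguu
rno-let-7f-5p: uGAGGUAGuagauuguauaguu
rno-let-7i-5p: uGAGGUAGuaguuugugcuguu
rno-let-7d-3p: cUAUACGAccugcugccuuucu

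The 7 guide strands share 1 seed, and the passenger strand has another. Counted from 1 at the 5′ end and with let-7a-5p as the reference, let-7c-5p differs by A19G, let-7b-5p by A17G and A19G, let-7f-5p by G12A, let-7e-5p by U9G and let-7d-5p by U1A and U16C. let-7i-5p is the most distant of the guide strands from let-7a-5p, with G12U, A17G, U18C and A19U. Of the 641 array miRNAs with a RefSeq sequence of the same name, 8 carry this seed, the 7 guide strands and miR-98-5p. let-7g-5p, which has the seed too, matched no array name and so was not analysed here. In the RefSeq gene table the genes of let-7a, let-7f and let-7d neighbour each other (Mirlet7a1, Mirlet7f-1os and Mirlet7d), as do those of let-7c and let-7b (Mirlet7c2 and Mirlet7b). let-7i comes from Mirlet7i, which has no miRNA gene within 10000 bases. let-7a-5p, let-7c-5p and let-7f-5p each have 2 genes with the same mature sequence, so an array signal cannot say which gene it came from.

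Each guide strand was read by 2 probes of 10 spots and let-7d-3p by 4 probes of 5 spots. The signal of a miRNA is its background-subtracted intensity, taken as the mean of the spots for each probe and added up over its probes. A miRNA was taken as measured on an array where the scanner software detected it, at least 1 probe had 0.5 or more of its spots well above background, and the sum reached the floor. The floor is the lowest such probe signal of the array (15.6, 15.1, 13.1 and 16.0 intensity units, in the order naive, light, moderate, severe). By that rule 124, 110, 150 and 112 miRNAs were measured. Summed over detected miRNAs, the light array gave 0.643, the moderate array 1.58 and the severe array 0.694 times the naive signal. Before arrays were compared, each was therefore scaled by its own 75th percentile among the 111 miRNAs found on all 4. The pair of labelling spike-ins (dmr_285 and dmr_31a) gave, as a geometric mean, 0.983 times the naive signal on light, 0.899 times on moderate and 0.637 times on severe. On severe the 2 differed, with 0.810 times for dmr_285 and 0.501 times for dmr_31a. The part of labelling in the differences below was not tested. Without scaling, the median log2 difference of all miRNAs from naive was −0.62 on light, 0.75 on moderate and −0.85 on severe, and after scaling 0.28, 0.23 and −0.16, so changes are read against that median.

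All 6 of the measured let-7 guide strands were lowest on the severe array, both before and after scaling. let-7a-5p had unscaled signals of 451 ± 4.30 on the naive array, 163 ± 1.52 on light, 368 ± 3.70 on moderate and 89.6 ± 1.68 on severe. let-7f-5p, which differs from it in a single base, gave 447 ± 4.21, 188 ± 2.73, 339 ± 3.89 and 102 ± 2.14 in the same order. let-7d-5p gave 321 ± 5.23, 139 ± 2.09, 292 ± 3.31 and 61.9 ± 1.17. For these 3, which have genes that neighbour each other, the order was naive, moderate, light, severe before scaling, and naive, light, moderate, severe after it.

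In the same order of arrays let-7b-5p read 291 ± 3.28, 119 ± 2.59, 365 ± 3.0 and 75.4 ± 2.13. let-7c-5p read 277 ± 3.83, 98.6 ± 1.57, 310 ± 3.01 and 53.0 ± 1.21. Both were brightest on the moderate array before scaling, and after it on the naive array, with moderate above light. let-7i-5p was 695 ± 10.1, 486 ± 4.63, 1070 ± 3.32 and 259 ± 3.29, and after scaling its order was light, moderate, naive, severe. Neighbouring levels in each of these scaled orders differed by more than 2 standard errors over spots. Signals were nearest to the floor on the severe array, where let-7c-5p and let-7d-5p were 3.31 and 3.87 times the floor, against 17.7 and 20.5 times on the naive array. On severe, 10 of 19 spots of let-7c-5p and 17 of 20 of let-7d-5p were well above background.

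let-7d-3p, the strand usually discarded when the let-7d hairpin is processed, behaved differently from let-7d-5p before scaling. Its signal was 65.6 ± 1.62 on naive, 61.7 ± 2.16 on light and 63.0 ± 2.34 on moderate, where naive and moderate, and moderate and light, lay within 2 standard errors of each other. On the severe array it read 17.6 ± 1.58 with 0 of 19 spots well above background, so it has only an upper bound there. let-7e-5p was not measured on any array. Its sums were 2.34 ± 0.81, −4.10 ± 0.95, 6.49 ± 0.92 and −7.42 ± 0.94, again naive to severe, with 0 spots well above background.

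**Figure D1:**
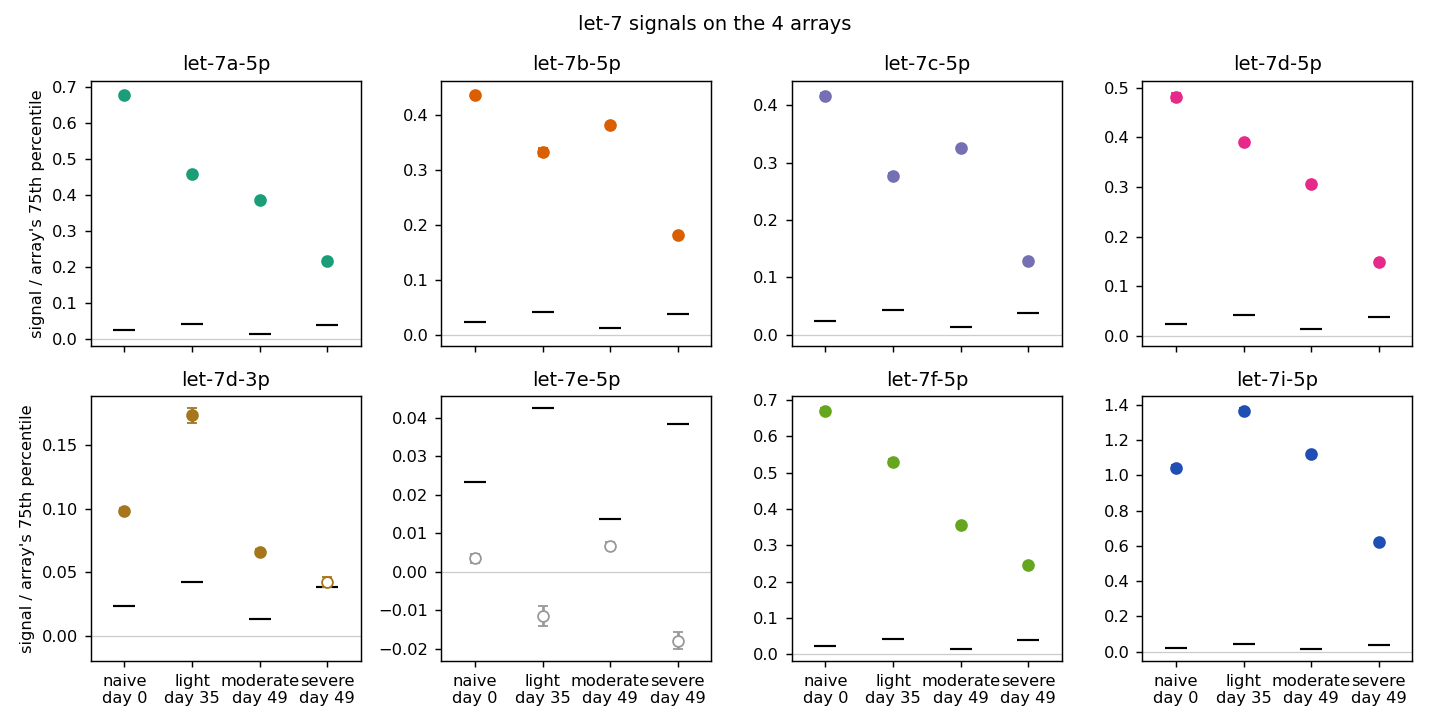
Scaled signal of each let-7 member (signal over the 75th percentile of its array, own linear axis per panel) on each of the 4 arrays, with the standard error over spots. Filled points were measured, open points were not, and black dashes mark the array's floor on the same scale. The 6 measured guide strands are lowest on the severe array, let-7d-3p reaches its floor there, and let-7e-5p lies below the floor on every array.

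The family was also taken as a share of the summed signal of all detected miRNAs, which divides each array by its own sum. It made up 1.83% in naive, 1.4% in light, 1.28% in moderate and 0.681% in severe exosomes. The severe share was thus 0.372 times the naive one. A share also moves with the bright miRNAs in the sum, which was 139132 on naive and 96612 on severe. Of these, miR-1224 read 9508 on naive and 19827 on severe, and miR-451-5p went the other way, from 27775 to 14052. With normexp, a model-based background correction, and its offset of 50 the shares were 2.25%, 2.14%, 1.56% and 1.47%, so the drop on the severe array was smaller.

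The light array at day 35 is the earliest disease time point and was set against the naive array. Here 0 of 7 measured members passed 2-fold in either direction, where 0.8% of the 125 miRNAs measured on either array were at least 2-fold lower and 1.6% higher. let-7c-5p (log2 difference −0.59 ± 0.03), let-7a-5p (−0.57 ± 0.02), let-7b-5p (−0.39 ± 0.04), let-7f-5p (−0.34 ± 0.02) and let-7d-5p (−0.31 ± 0.03) lay below the naive array. These 5 of 7 members, where 30.3% of the 109 miRNAs measured on both arrays lay below 0, kept that sign under all alternatives in which the processing was varied. let-7i-5p stood at 0.39 ± 0.03 and let-7d-3p at 0.82 ± 0.06, but without scaling both were below 0, at −0.52 and −0.09, and with labelling spike-ins too. The median of the 7 members was −0.34, against 0.28 over all 109 miRNAs. With no scaling 5 of the 7 members passed 2-fold lower, as did 34 of all 125 miRNAs, and with the spike-ins 5 of 7 and 32 of 125, against 1 of 125 after scaling.

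Against the naive array, the moderate array at day 49 also had 0 of 7 measured members past 2-fold, where 1.31% of 153 miRNAs were lower and 5.88% higher. let-7f-5p was the lowest of all 121 miRNAs measured on both arrays, at −0.92 ± 0.02, and let-7a-5p came in place 4, at −0.81 ± 0.02. let-7f-5p passed 2-fold lower under 4 alternatives, among them median scaling (1 member of 7, and 5 of 153 miRNAs). let-7d-5p stood at −0.66 ± 0.03, let-7d-3p at −0.58 ± 0.06, let-7c-5p at −0.36 ± 0.02, let-7b-5p at −0.19 ± 0.02 and let-7i-5p at 0.10 ± 0.02. Thus 6 of 7 lay below 0, where 33.1% of the 121 miRNAs did, but of these signs only those of let-7a-5p and let-7f-5p held under all alternatives. Without scaling let-7b-5p, let-7c-5p and let-7i-5p read 0.33, 0.16 and 0.62. The members' median was −0.58, against 0.23 over all miRNAs, a gap of −0.81 that a single scaling factor per array cannot change.

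The severe array at day 49 gave the largest difference from naive. Past 2-fold, 6 of the 7 members were lower and 0 higher, where 18.7% of 134 miRNAs were at least 2-fold lower and 23.9% higher. let-7c-5p was 3.26-fold lower (log2 −1.71 ± 0.04), let-7d-5p 3.23-fold (−1.69 ± 0.04) and let-7a-5p 3.14-fold (−1.65 ± 0.03). let-7f-5p was 2.72-fold lower (−1.44 ± 0.03) and let-7b-5p 2.40-fold (−1.27 ± 0.04). These 5 guide strands took places 7, 8, 9, 11 and 17 from the lowest of the 102 miRNAs measured on both arrays. let-7i-5p, at place 26, was 1.68-fold lower (−0.74 ± 0.03) and did not pass 2-fold.

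let-7d-3p was at least 2.33-fold lower on the severe array, a bound that sets a sum over 4 probes against its own unresolved signal there. With its brightest probe alone the bound was 1.84-fold, under the threshold. The median of the 6 members measured on both arrays was −1.55, against −0.16 over all 102 miRNAs, and 6 of 6 lay below 0, where 52.9% of the 102 did. Each of the 6 stayed below 0 under all alternatives. The calls did not hold with normexp and its offset, which were not varied apart. With normexp and its offset of 50, which is added to every spot and lowers folds by construction, 0 of 7 members passed 2-fold while 5 of 134 miRNAs were lower past it, and the gap to the median of all miRNAs shrank from −1.38 to −0.74.

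The comparison of severe with moderate disease holds the day constant. Here 3 of the 7 members passed 2-fold lower and 0 higher, where 19.1% of 157 miRNAs were at least 2-fold lower and 18.5% higher. let-7c-5p stood at −1.35 ± 0.04, let-7b-5p at −1.08 ± 0.04 and let-7d-5p at −1.04 ± 0.03. let-7i-5p (−0.85 ± 0.02), let-7a-5p (−0.84 ± 0.03), let-7f-5p (−0.53 ± 0.03) and let-7d-3p (a bound of 1.56-fold lower) did not pass. The median of the 6 members measured on both was −0.94, against −0.41 over all 105 miRNAs, and 6 of 6 lay below 0, where 62.9% of the 105 did. The count of members past 2-fold lower was not stable over the alternatives, and is given beside that of all miRNAs. Unscaled it was 7 of 7 beside 102 of 157 miRNAs, and scaled by the spike-ins 7 of 7 beside 75 of 157. It was 1 of 7 beside 21 of 157 where signals were scaled by the median, 1 of 7 beside 18 of 157 from the brightest probe, and 1 of 6 beside 16 of 102 in the deposited value table. It was 0 of 7 beside 8 of 157 after normexp and 0 of 6 beside 16 of 97 after quantile normalization. The comparisons with the naive array share that array, and this one shares the severe array with the last of them, so they are not independent of each other.

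**Figure D2:**
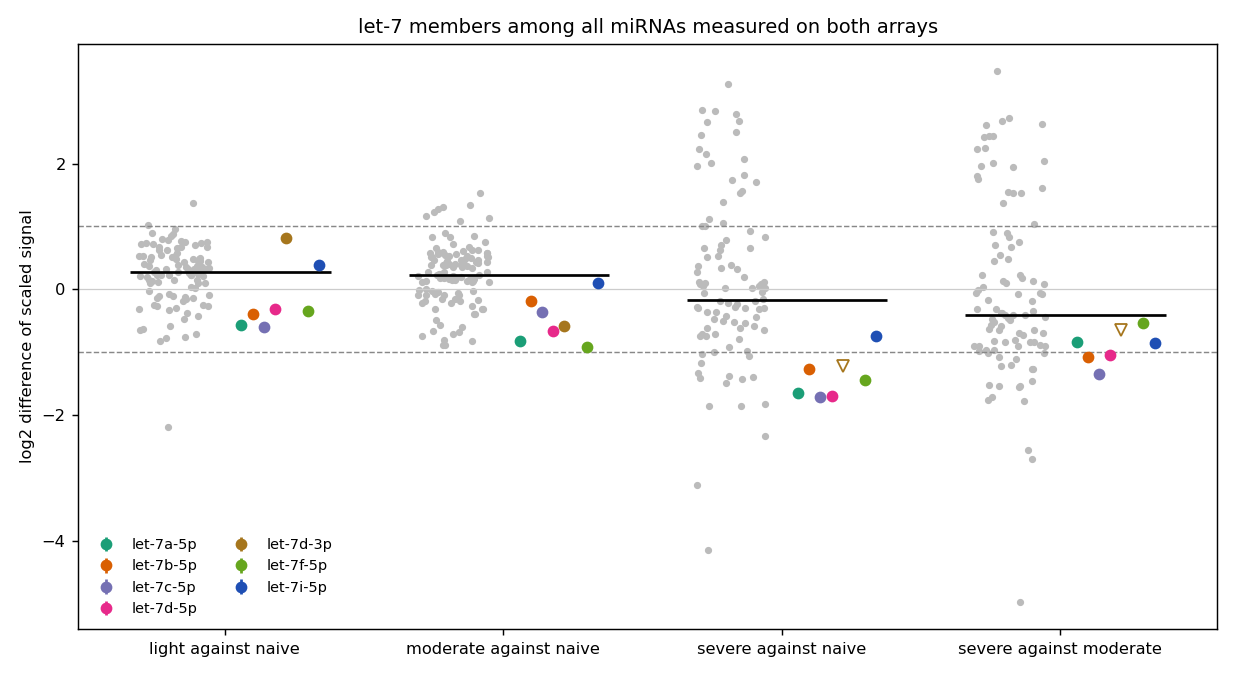
Log2 difference of scaled signal in each comparison, with grey points for the other miRNAs measured on both arrays, black bars for the median of all of them, and coloured points for let-7 members with the standard error over spots (smaller than the point for most). Open triangles are bounds for let-7d-3p and dashed lines mark 2-fold. The measured let-7 guide strands lie between −1.71 and −0.74 in severe against naive, where the median of all miRNAs is −0.16.

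Both probes of a guide strand moved the same way wherever both were well above background. This held for 6 of 6 members with such a pair in light against naive, 7 of 7 in moderate against naive (let-7d-3p included, through 2 of its probes) and 5 of 5 in severe against naive. In severe against naive 11 probes could be compared, all 11 were lower and 9 were at least 2-fold lower. The 2 that were not belong to let-7i-5p, at −0.81 and −0.71. Probes of 1 member differed most for let-7d-5p, by 0.49, with −2.04 from the probe whose severe signal of 16.2 ± 0.70 was close to the floor and −1.55 from the brighter one. The second probe of let-7c-5p had 0 of 9 spots well above background on the severe array, so the severe value rests mainly on the first, at −1.64.

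**Figure D3:**
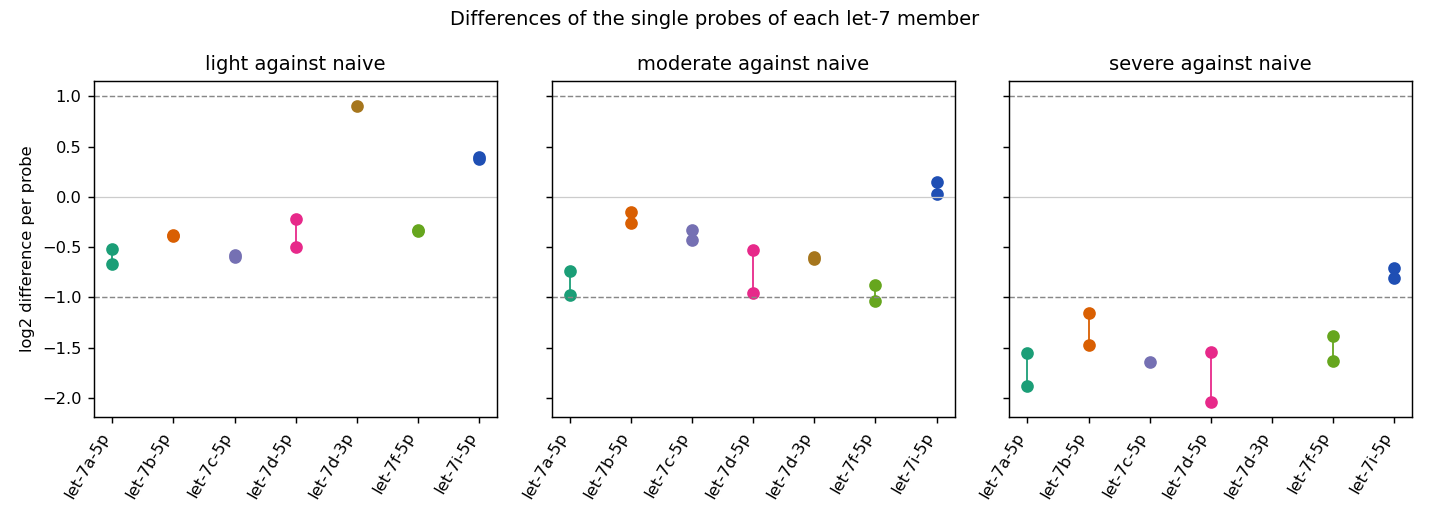
Log2 difference of scaled signal for each probe that had 0.5 or more of its spots well above background on both arrays, by let-7 member, for light, moderate and severe against naive. Lines join the probes of 1 member and dashed lines mark 2-fold. Of the 11 probes in severe against naive, 9 lie past 2-fold lower and the pair of let-7i-5p lies above that line.

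Differences between members within an array do not depend on a scaling factor. let-7i-5p stood apart from the mean of let-7a, let-7b, let-7c, let-7d and let-7f 5p by 0.83 ± 0.03 on the log2 scale in light against naive, 0.69 ± 0.02 in moderate and 0.81 ± 0.03 in severe. In each case let-7i-5p was the less reduced or the higher one. The severe value was 0.17 with normexp and its offset, and the other 2 lay between 0.43 and 0.84 over all alternatives. In severe against moderate the distance was 0.12 ± 0.02, −0.23 with quantile normalization and −0.41 with normexp, so there its sign was not stable.

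On the moderate array the guide strands split further. let-7b-5p and let-7c-5p, neighbours in the genome that share A19G, lay 0.52 ± 0.02 above let-7a-5p, let-7d-5p and let-7f-5p, the other neighbouring group, when each was set against naive. Over the alternatives that distance was 0.38 to 0.57. The same contrast was −0.08 ± 0.03 in light against naive, with a sign that turned under normexp, and 0.11 ± 0.03 in severe against naive. A split by gene group and a split by base 19 part these 5 members in the same way and cannot be told apart. let-7a-5p, let-7c-5p and let-7f-5p also have a gene outside these neighbour groups (Mirlet7a-2, Mirlet7c1 and Mirlet7f2), so their signals need not come from the groups named.

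The 2 arms of the let-7d hairpin differed on the light array. let-7d-3p relative to let-7d-5p was 2.17-fold higher there than on the naive array (log2 1.12 ± 0.07), and 0.71 to 1.14 over the alternatives. On the moderate array the distance was 0.08 ± 0.07, not beyond spot noise. The 3p signal came from 2 of its 4 probes, since the other 2 read at most 4.55 on any array. Of the 2 brighter probes, 1 had just 2 of 5 spots well above background on the light array. The arm difference there thus rests mainly on the brightest probe (5 of 5 spots), whose own log2 difference from naive was 0.91.

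Over the 15 pairs of measured guide strands, the distance between profiles (Euclidean, over 4 centred log2 signals) ran from 0.243 for let-7a-5p with let-7d-5p to 0.807 for let-7c-5p with let-7i-5p. By bases of difference, the distances were 0.277 to 0.419 for 1 (3 pairs), 0.243 to 0.664 for 2 (3 pairs), 0.360 to 0.614 for 3 (4 pairs), 0.491 to 0.807 for 4 (4 pairs) and 0.718 for 6 (1 pair). These ranges overlap, and 3 of the 4 pairs with 4 differences hold let-7i-5p. The 5 pairs that hold let-7i-5p lay between 0.570 and 0.807, and the other 10 between 0.243 and 0.664. This is a description of 4 arrays, and all pairs share them.

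Outside the family, 91 miRNAs were measured on all 4 arrays, with a median distance of 1.16 to the median profile of the 6 guide strands. The 5 nearest, chosen for their likeness and so given with no test, were miR-425-5p (0.278), miR-26a-5p (0.451), miR-652-3p (0.509), miR-181d-5p (0.557) and miR-342-3p (0.583). miR-425-5p read 213 ± 1.49, 95.6 ± 1.46, 262 ± 2.18 and 49.3 ± 1.23 from naive to severe, a log2 difference of −1.43 in severe against naive. Like let-7b-5p, let-7c-5p and the others of the 5 nearest, it was brightest before scaling on the moderate array, whose summed signal was 1.58 times the naive one. let-7i-5p itself lay at 0.656, and 10 miRNAs outside the family were nearer to the let-7 median than it was.

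**Figure D4:**
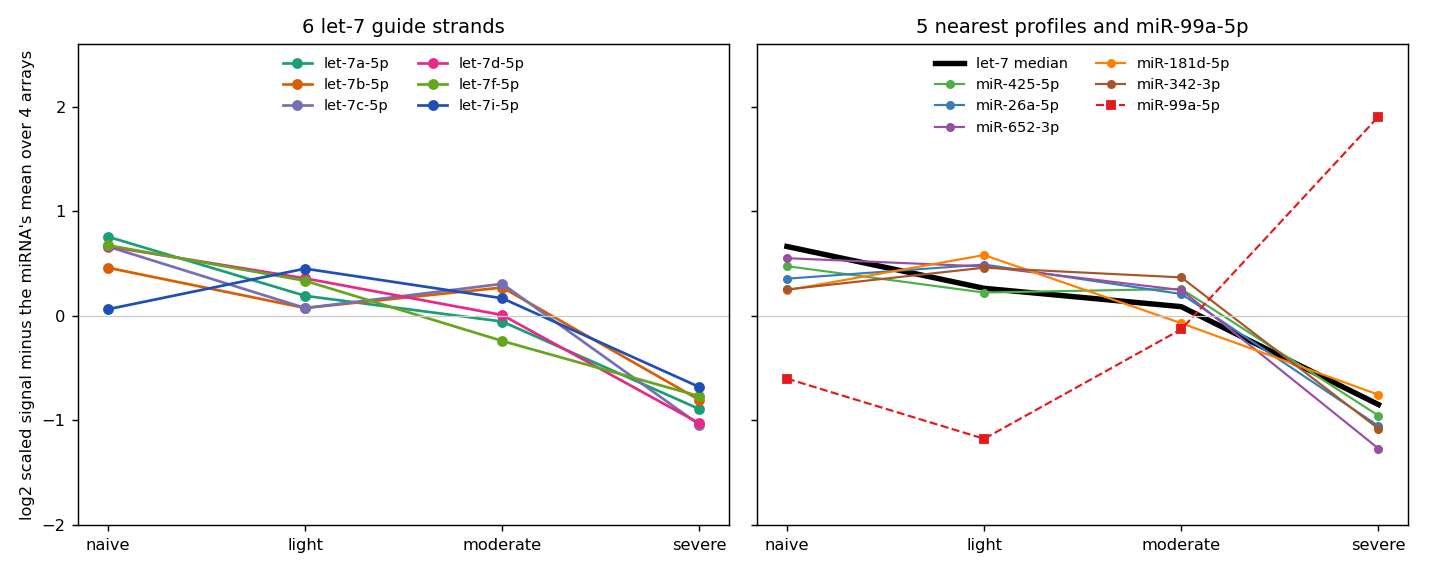
Log2 scaled signal minus each miRNA's mean over the 4 arrays, for the 6 measured let-7 guide strands (left) and for the let-7 median profile, the 5 nearest miRNAs and miR-99a-5p (right); lines only join the values of 1 miRNA. The guide strands are highest on the naive array except let-7i-5p, which is highest on the light array, and all are lowest on the severe array, where miR-99a-5p is highest.

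Of 11 other let-7 family names, 9 were on the array and 1 was measured. This was miR-98-5p on the moderate array, at 19.7 ± 1.34 with 5 of 19 spots well above background. The remaining passenger strands were not measured on any array, nor was miR-3596a, miR-3596b, miR-3596c or miR-3596d, of which the first 3 have genes next to let-7 genes. Of 11 miRNAs of the miR-99, miR-100 and miR-125 families, which lie in clusters with let-7 genes, 4 were measured on at least 1 array. In severe against naive 3 of these could be compared, 2 of them higher past 2-fold and 0 lower, where 23.9% of 134 miRNAs were higher and 18.7% lower.

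miR-99a-5p, whose gene neighbours Mirlet7c1, went the opposite way to let-7c-5p in severe against naive, and both kept their sign under all alternatives. It read 53.7 ± 1.11 on the naive array, 19.3 ± 0.98 on light, 107 ± 1.30 on moderate and 190 ± 1.64 on severe. After scaling it was 5.68-fold higher on the severe array than on the naive one, and let-7c-5p 3.26-fold lower. The distance between them was 4.21 ± 0.05 on the log2 scale, and 1.96 to 4.49 over the alternatives. let-7c-5p also comes from Mirlet7c2, so the share of each gene is not known. miR-125a-3p, from the cluster of the unmeasured let-7e-5p, read 108 ± 2.11, 128 ± 2.33 and 300 ± 3.98 on the naive, moderate and severe arrays, had 2 of 20 spots well above background on light, and was 4.46-fold higher on severe than on naive. The other arm of that hairpin, miR-125a-5p, and miR-99b-5p of the same cluster were not measured on any array, with 0 spots well above background. miR-125b-5p was measured on the naive and moderate arrays alone, at 41.7 ± 1.02 and 77.0 ± 1.39, and was at least 1.62-fold lower on severe than on naive. miR-100-5p was measured on the moderate array alone, at 16.8 ± 0.97.

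let-7 is made by many cell types, so the miRNAs that mark blood cells, liver and muscle are given beside it. On the severe array the red-cell list (4 of 4 names on the array measured) took 17.8% of the summed signal, against 25.2% on naive (3 of 4). Its members did not move as one, since the scaled log2 difference was −0.30 for miR-451-5p and −0.71 for miR-16-5p but 1.82 for miR-144-3p, and miR-144-5p had a bound of 1.97. The platelet list (3 of 4 on both) took 3.84% against 6.48%, and the leukocyte list (5 of 5 on both) 0.674% against 1.33%. Most of the platelet sum was miR-223-3p, with 6534 of 9015 units on naive and 2161 of 3705.5 on severe. That share is therefore mainly the reading of 1 miRNA. Within the platelet list miR-126a-3p (−0.98) and miR-223-3p (−0.91) lay below 0 and miR-22-3p at 0.02. In the leukocyte list miR-150-5p (−3.11) and miR-342-3p (−1.33) were past 2-fold lower, miR-142-5p (−0.64) and miR-146a-5p (−0.44) were not, and miR-142-3p stood at 0.03. Hepatocyte miRNAs (1 of 2 against 2 of 2) took 0.448% against 0.826%, and muscle miRNAs (1 of 4 against 2 of 4) 0.0407% against 0.899%. miR-122-5p, the main hepatocyte miRNA, read 1123, 132, 964 and 417 from naive to severe before scaling. Its scaled log2 difference from naive was −2.18 on light, −0.74 on moderate and −0.75 on severe. In the muscle list miR-133b-3p (−4.14) was past 2-fold lower, and miR-1-3p had a bound of −2.35 with 0 spots well above background on severe. miR-133a-3p and miR-206-3p also had 0 such spots on severe, but were not measured on naive either. On light and moderate the red-cell list (3 of 4 on both) took 27.0% and 25.1%, platelets (3 and 4 of 4) 7.56% and 8.72%, leukocytes (5 of 5 on both) 1.51% and 1.04%, hepatocytes (1 and 2 of 2) 0.148% and 0.454% and muscle (2 and 3 of 4) 0.470% and 1.56%. No list followed the let-7 share of 1.83%, 1.4%, 1.28% and 0.681% through all 4 arrays in the same order. List shares are sums, and single members can differ from them. miR-150-5p had scaled log2 differences from naive of −0.09 on light, −0.57 on moderate and −3.11 on severe. That is the scaled order of let-7a-5p, let-7d-5p and let-7f-5p. The other measured leukocyte miRNAs stood above naive on light, at 0.21 to 0.79. The part of these cell types in the let-7 differences was not tested, and fewer vesicles from a cell type cannot be told apart from less let-7 per vesicle.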

How the data were processed

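RNA from serum exosomes was profiled in 1 colour (Cy3), 1 array for each of the 4 groups, which come from the sample titles. Per the file headers, the deposited spot intensity values came from Agilent Feature Extraction 10.7.3.1 (protocol miRNA_107_Sep09, design 046066, rn4 grid). Version 9.1 stands in the submitters' processing notes. The headers say that values are background-subtracted and not scaled between arrays, which share 1 scan time. The labels' labelling protocol describes cRNA amplification, which differs from what a miRNA array implies and was not resolved. Deposited total intensity values per miRNA and the series' value table (102 miRNAs, 6 members, medians of 189, 107, 304 and 114 from naive to severe) served as alternatives. The table equals the total intensity within 0.0424%, linear and unscaled.

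Outlier spots (386, 387, 386 and 525 of 14380) were left out, and 0 spots were saturated. The median variation between spots of 1 probe was 4.80% to 5.87%. For a miRNA measured on just 1 array of a comparison, the other array was given its floor or its own signal, whichever was higher, and the result is a bound ("at least"). It is not strict, because the floor is of 1 probe and the value a sum. The demand for spots well above background was added after seeing the data, because let-7d-3p had reached the severe floor with 0 such spots.

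With 1 array per group no test was run. A difference of 2-fold was the threshold, and the number of arrays limits the precision. Members, lists and the rule for named miRNAs (the members, the 5 nearest profiles and list members) were chosen with earlier results of these data known. The marker lists lack miR-486 and miR-155-5p, and the family list let-7a-2-3p and let-7c-2-3p, which matched no array name. The value per miRNA and the fold calls were tested on simulated arrays, built from the spots of the naive array with known folds. That simulation did not use the spots of the severe array and holds no differences between rats. Its folds were not near the 2-fold threshold, and it reused the detection calls of the naive array. It therefore cannot tell how reliable calls near 2-fold or near the severe floor are. Python 3.11.15, numpy 2.4.6, pandas 2.3.3 and limma 3.58.1 (for normexp) were used. No coordinates are given, since the RefSeq tables are of another assembly than the grid.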

Additional observations from a re-analysis of the deposited data

How the results depend on the processing

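The results were recomputed under 13 alternatives, of which 11 were planned and 2 were added after seeing the data (measured without the demand on spots, and without let-7d-3p). The planned 75th percentile over all miRNAs was not run, because it was below 0 on the light array (−0.74). No paired analysis was possible because each group has 1 array. The number of members at least 2-fold higher was 0 in every comparison and alternative. Members at least 2-fold lower numbered 5 in light against naive without scaling (beside 34 of 125 miRNAs) and with labelling spike-ins (32 of 125). In moderate against naive 1 member was past it with median scaling (5 of 153 miRNAs), quantile normalization (5 of 97), the scanner software's total signal (3 of 153) and the deposited value table (3 of 101). In severe against naive they numbered 0 with normexp (5 of 134 miRNAs), and 5 to 7 otherwise (24 to 53 miRNAs in the alternatives that tested 134). In severe against moderate they numbered 7 without scaling (102 of 157 miRNAs) and with spike-ins (75 of 157), 1 with median scaling (21 of 157), the brightest probe (18 of 157) and the value table (16 of 102), and 0 with quantile normalization (16 of 97) and normexp (8 of 157). The gap between the let-7 median and the median of all miRNAs was below 0 in all comparisons and alternatives. With normexp it was −0.43, −0.41, −0.74 and −0.29 in light, moderate and severe against naive and severe against moderate. In moderate against naive it was −0.72 with quantile normalization and with the value table, −0.73 with the brightest probe and −0.74 without let-7d-3p. It was −1.27 in severe against naive with quantile normalization, and −0.42 in severe against moderate with the floor at the lowest summed signal. Normexp adds 50 to each spot and so lowers folds by construction; the causes of the other changes were not tested. Signal over background limits the severe values of let-7d-3p, let-7c-5p and let-7d-5p.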
